A study of Homo sapiens with 2 samples.

Results

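Aminoacyl-tRNA synthetases are the enzymes that join each amino acid to its transfer RNA, and they feed the ribosome with charged tRNA. All are encoded in the nucleus, and most amino acids have separate genes for a cytosolic and a mitochondrial enzyme. Many of the cytosolic genes are known targets of ATF4, a transcription factor that is made when uncharged tRNA activates the kinase GCN2. They were examined here in BE(2)-C, a human neuroblastoma line in standing culture that carries extra copies of MYCN. The genes were taken by symbol from the deposited table, in which older names such as CARS stand for the present CARS1. All 36 listed genes were found, 20 cytosolic and 16 mitochondrial (names ending in 2), among 16005 genes.

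Wild-type cells were grown for 7 days in EMEM/F12, a mixture of classical media, or in HPLM, a medium that holds metabolites and salts near the levels of human plasma. Both media had 10% fetal bovine serum and 1% penicillin-streptomycin, and polyadenylated RNA was sequenced. There is 1 listed sample for each medium, with 3 library columns apiece. No label says that these came from separate cultures, so every p-value rests on library spread alone, which may be technical. Levels are normalised reads, which are read counts divided by a factor per library. A gene is said to have risen or fallen in HPLM where the authors' deposited table gave it a DESeq2 adjusted p under 0.05. Ratios are HPLM over EMEM/F12, given as log2 ratios of the means ± SE over 3 libraries per medium.

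Each library held 17362064 to 21493280 reads on genes. The 11 neuroblastoma markers, among them HAND2 and GATA3, were all in the table. They summed to 237774 to 276542 normalised reads in EMEM/F12 and 213344 to 222343 in HPLM. Of these markers 8 fell and 2 rose in HPLM, against 28.8% and 26.8% of all genes tested. No line was found for any of 4 endothelial markers, and 1 of 6 blood markers was present, at 43.8 to 74.4. The 4 epithelial markers found, of 6, summed to 226 to 270 in EMEM/F12 and 421 to 490 in HPLM. The 7 fibroblast markers, which include collagen genes, summed to 36709, 39065 and 85747 in EMEM/F12 libraries 1, 2 and 3 and to 66192 to 73879 in HPLM. Neither COL1A1 nor COL1A2, which carry most of that sum, was called, while LUM and PDGFRB fell (log2 fold changes of -0.98 and -1.47 in the authors' deposited table). The part of these other cell markers in the synthetase values was not tested. EMEM/F12 library 3 stood apart, with 346 genes at least 2-fold above both other libraries of its medium against 16 for each of the others. In that library 29 of the 36 synthetase genes lay below the mean of libraries 1 and 2 (median log2 difference -0.05), as did 9231 of all 16004 genes tested (median -0.03).

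In HPLM 12 of the 36 synthetase genes were higher, 16 were lower and 8 were not called, with most of the rises among the cytosolic genes and most of the falls among the mitochondrial ones. Of the 20 cytosolic genes 10 rose and 6 fell, with a median log2 fold change of 0.18 in the authors' deposited table. Of the 16 mitochondrial genes 2 rose and 10 fell, with a median of -0.22 there. As background, 55.6% of the 16004 genes tested were called in the authors' deposited table, 26.8% higher and 28.8% lower, with a median of 0.0085. Called by edgeR's quasi-likelihood test on the recovered reads were 64.2% of 15971 genes, and among the synthetases 12 rose and 17 fell by that test. Without EMEM/F12 library 3, 10 cytosolic genes rose and 7 fell, and 2 mitochondrial genes rose and 11 fell. With each library left out in turn, 10 cytosolic genes rose and 5 to 7 fell, and 2 mitochondrial genes rose and 7 to 11 fell, the 7 being without EMEM/F12 library 1 or library 2. The media did not overlap in library values for 30 of the 36 genes, against 68.6% of all genes tested. The sum over the cytosolic genes was 113103, 112652 and 108174 normalised reads in the EMEM/F12 libraries and 134139, 134213 and 135257 in the HPLM libraries, 20.9% higher in the mean. The sum over the mitochondrial genes was 13982, 14000 and 13412 in EMEM/F12 and 11772, 11621 and 11632 in HPLM, a change of -15.4% in the mean. In neither sum did the media overlap. In bulk RNA a change in the share of cells that express a gene and a change in RNA per cell cannot be told apart.

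**Figure D1:**
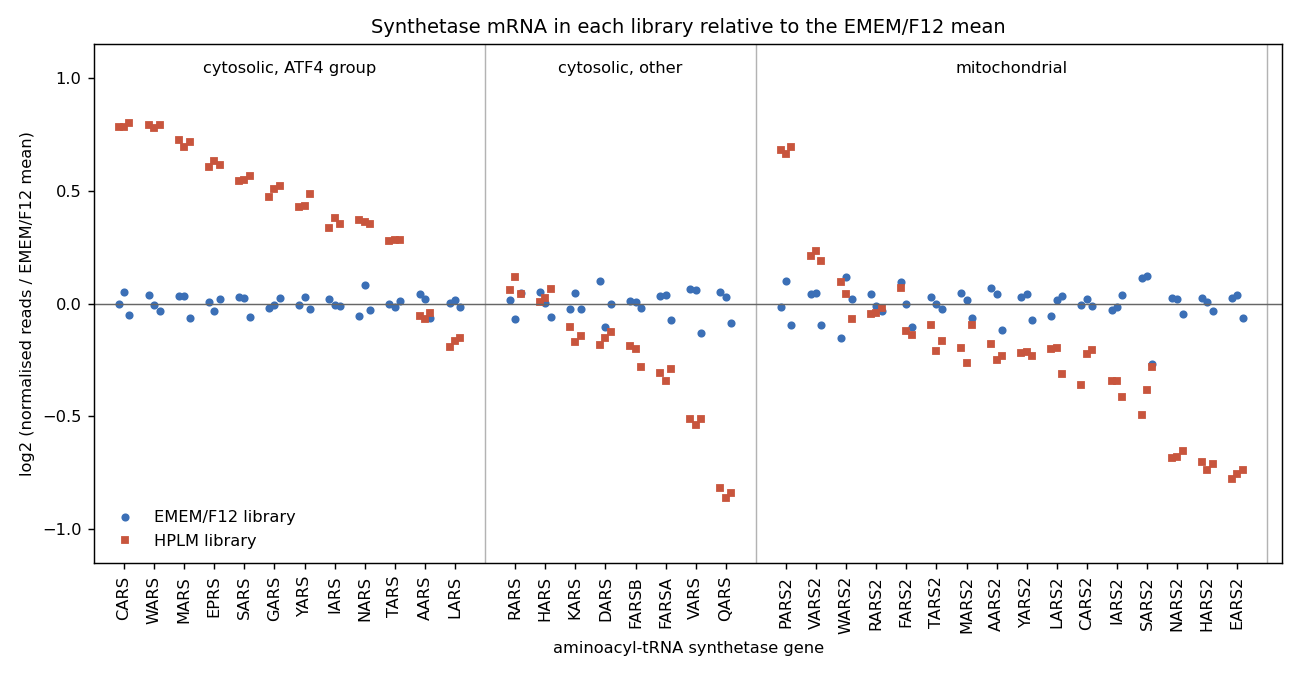
Log2 of the normalised reads of each synthetase gene (horizontal axis) relative to its EMEM/F12 mean, with 1 point per library, circles for EMEM/F12 and squares for HPLM. Genes are grouped as cytosolic genes named in textbook accounts of the ATF4 response, other cytosolic genes and mitochondrial genes; 10 of 12, 0 of 8 and 2 of 16 rose.

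Textbook accounts of the amino acid response name 12 of the cytosolic synthetases as ATF4 targets, AARS, CARS, EPRS, GARS, IARS, LARS, MARS, NARS, SARS, TARS, WARS and YARS. Of these 12, 10 rose, LARS fell and AARS did not pass. Of the 8 cytosolic genes outside that group 0 rose and 5 fell by the authors' DESeq2 test, and likewise by edgeR's, and 0 rose at an unadjusted p under 0.05 in the authors' deposited table. For the 12 its median log2 fold change was 0.47 and for the 8 it was -0.19. The groups were drawn up with earlier results of these data known, so their split is a description. The 12 summed to 81062 ± 1412 normalised reads in EMEM/F12 and 110364 ± 589 in HPLM (log2 ratio 0.45 ± 0.02), and the 8 to 30248 ± 1313 and 24172 ± 175 (log2 ratio -0.32 ± 0.04), as SD over 3 libraries.

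**Figure D2:**
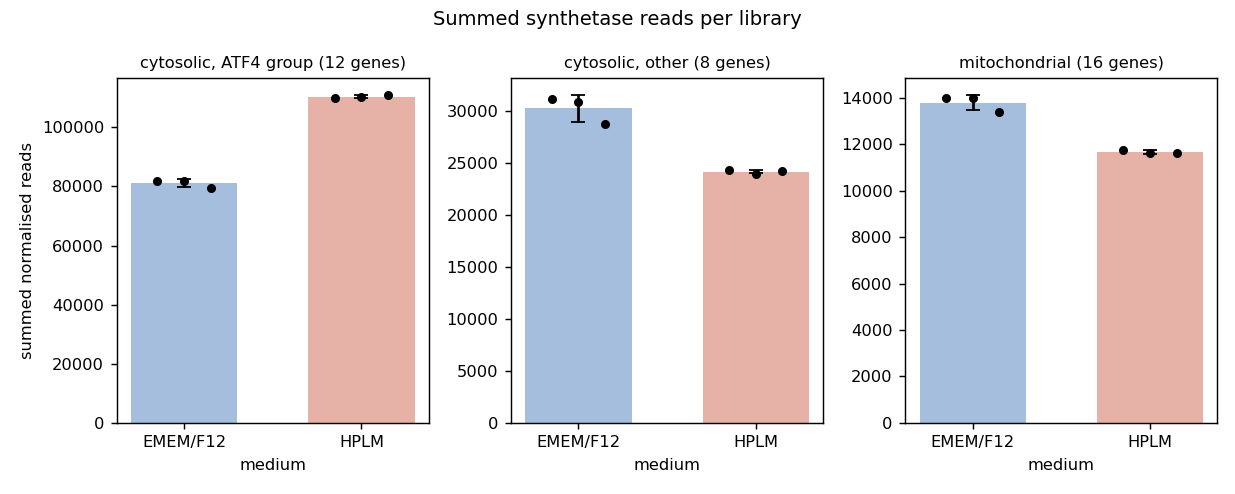
Summed normalised reads (vertical axis, from 0, on a scale of its own in each panel) of the 12 cytosolic genes of the ATF4 group, the 8 other cytosolic genes and the 16 mitochondrial genes in each medium. Bars are means, error bars SD over 3 libraries and points single libraries; the first sum was 110364 in HPLM against 81062 in EMEM/F12.

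CARS, which encodes the cysteinyl-tRNA synthetase (ENSG00000110619, chromosome 11, 3000922 to 3057613 on GRCh38), had 1649, 1710 and 1595 normalised reads in EMEM/F12 libraries 1 to 3 and 2839, 2841 and 2879 in HPLM libraries 1 to 3. All HPLM libraries lay above all EMEM/F12 libraries, by a log2 ratio of 0.79 ± 0.03 (1.73-fold), with a DESeq2 adjusted p of 3.53e-49 in the authors' deposited table. WARS, which encodes the tryptophanyl enzyme (ENSG00000140105, chromosome 14, 100333788 to 100376805), had 5987, 5812 and 5697 in EMEM/F12 and 10086, 9990 and 10092 in HPLM. It too rose without overlap (0.79 ± 0.02), with a DESeq2 adjusted p of 3.99e-89 in the authors' deposited table. Of the WARS exon bases 6.06% are shared with AL157871.4 and 4.51% with WDR25 on the other strand. Their part in the WARS count was not tested. MARS, the methionyl enzyme gene (ENSG00000166986, chromosome 12, 57475445 to 57517569), had 10815, 10819 and 10109 in EMEM/F12 and 17500, 17093 and 17353 in HPLM. Its rise was 1.64-fold (0.71 ± 0.03). Of its annotated exon bases 5.05% are shared with DDIT3 and 7.38% with ARHGAP9 on the other strand, and 0.896% with MIR6758. Strand is not marked by the kit used. DDIT3 itself went from 155 ± 23.7 to 842 ± 43.9 normalised reads, and ARHGAP9 averaged 74.7 over the 6 libraries. The part of these genes in the MARS count, and of MARS in theirs, was not tested.

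EPRS, a single gene for a fused enzyme that charges both glutamate and proline tRNAs, had 6120, 5956 and 6180 in EMEM/F12 and 9270, 9435 and 9322 in HPLM (0.62 ± 0.02). SARS, which charges serine tRNAs and the selenocysteine tRNA, had 12882, 12835 and 12107 in EMEM/F12 and 18368, 18445 and 18672 in HPLM (0.55 ± 0.03). GARS, whose gene gives both the cytosolic and the mitochondrial glycyl enzyme, had 6430, 6504 and 6648 in EMEM/F12 and 9056, 9279 and 9356 in HPLM (0.50 ± 0.02). In all 3 genes the HPLM libraries were higher and apart from those of EMEM/F12. YARS, the tyrosyl enzyme gene, had 4668, 4777 and 4606 in EMEM/F12 and 6309, 6313 and 6548 in HPLM (0.45 ± 0.02). NARS, the asparaginyl enzyme gene, had 2584, 2844 and 2634 in EMEM/F12 and 3469, 3456 and 3428 in HPLM (0.36 ± 0.04). IARS, the isoleucyl enzyme gene, had 10112, 9913 and 9880 in EMEM/F12 and 12571, 12984 and 12731 in HPLM (0.36 ± 0.02). TARS, for threonine, showed the smallest rise of the 10, from 4753, 4707 and 4796 in EMEM/F12 to 5761, 5784 and 5774 in HPLM (0.28 ± 0.01).

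AARS and LARS did not share the rise. AARS, the alanyl enzyme gene, had 10425, 10257 and 9688 in EMEM/F12 and 9751, 9660 and 9839 in HPLM, with overlap (-0.05 ± 0.03). LARS, which encodes the leucyl enzyme and whose protein is also known as a leucine sensor for mTORC1, had 5563, 5624 and 5496 in EMEM/F12 and 4865, 4962 and 5011 in HPLM. That fall was small and without overlap (-0.17 ± 0.02), with a DESeq2 adjusted p of 1.02e-04 in the authors' deposited table. AARS was called lower with spike-in size factors and without EMEM/F12 library 3.

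Promoters of the synthetase genes and of the other deposited genes were searched for the C/EBP-ATF response element, the composite site that ATF4 is known to bind with C/EBP proteins. RefSeq promoters (GRCh38.p14, 250 bases before to 50 after the first listed start) were matched for 30 of the 36 members; DARS, LARS, VARS, YARS, AARS2 and VARS2 had none. The form TGATGCAA, read on both strands, stood in 6 of 16 cytosolic promoters (37.5%), in 0 of 14 mitochondrial promoters and in 58 of 11514 matched promoters of the deposited genes (0.504%). All 6 belong to the 12 genes of the ATF4 group, of which 10 were matched. That group is one of named ATF4 targets, drawn up with earlier results of these data known, so this is a description. The wider form TGATGNAA, which contains the first, added only YARS2 among members and stood in 1.74% of the deposited genes' promoters. In the 250 bases before the start alone, 2 of 16 cytosolic promoters held TGATGCAA. The 6 stretches are shown because they carry the same 8 letters, in capitals, with TTGCATCA being the same site read on the other strand. Each line gives 60 bases, 5′ to 3′ along the gene.
CARS, chr11:3057396-3057455, minus strand: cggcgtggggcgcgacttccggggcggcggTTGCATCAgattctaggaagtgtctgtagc
MARS, chr12:57488036-57488095, plus strand: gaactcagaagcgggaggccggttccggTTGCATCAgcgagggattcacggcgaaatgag
IARS, chr9:92293677-92293736, minus strand: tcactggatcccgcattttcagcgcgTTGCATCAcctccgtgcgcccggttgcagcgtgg
TARS, chr5:33440933-33440992, plus strand: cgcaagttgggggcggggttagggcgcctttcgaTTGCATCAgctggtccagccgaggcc
NARS, chr18:57621809-57621868, minus strand: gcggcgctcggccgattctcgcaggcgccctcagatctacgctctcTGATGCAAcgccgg
AARS, chr16:70289660-70289719, minus strand: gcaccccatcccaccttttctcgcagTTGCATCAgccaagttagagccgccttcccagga

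The site began within 14 bases of the listed start in the 5 of these genes that rose, at -2 in CARS, -4 in MARS, -13 in IARS, 2 in TARS and 14 in NARS, counting the start base as 0. In AARS, which did not pass the test, it began at -187. EPRS, GARS, SARS and WARS rose and had no TGATGCAA in the first listed window. A match in letters is not a measured binding site. The E-box CACGTG, a site of MYC-family proteins, stood in 1 of 16 cytosolic promoters (IARS), in 3 of 14 mitochondrial ones (CARS2, EARS2 and MARS2) and in 10.1% of the deposited genes' promoters.

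**Figure D3:**
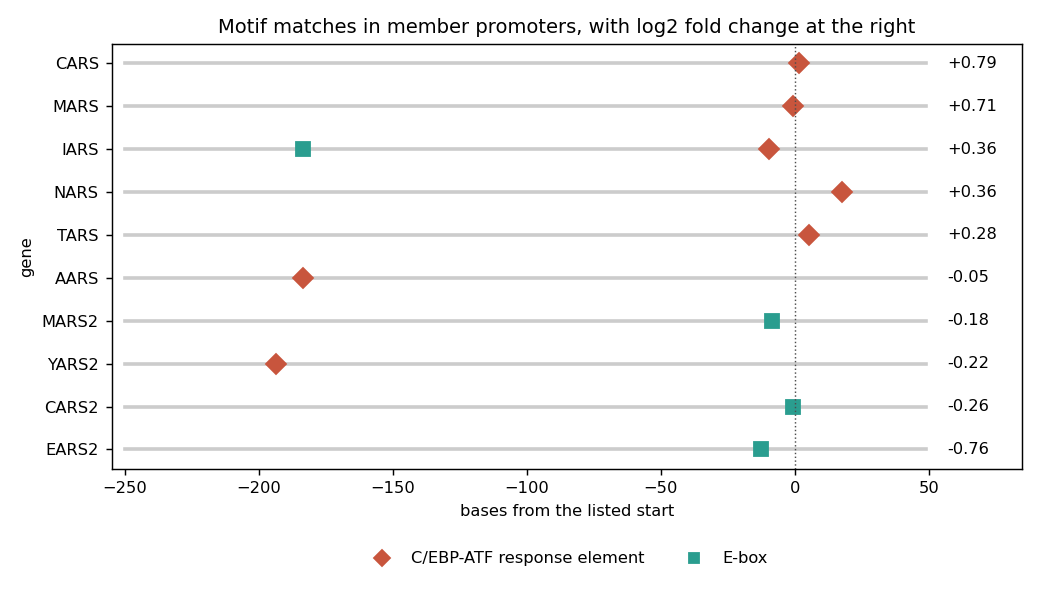
Position of motif matches in the promoters of 10 synthetase genes, in bases from the first listed start (dotted line), with the deposited log2 fold change at the right. Diamonds mark TGATGNAA and squares the E-box, on either strand; symbols sit at the middle of each match. The diamonds of CARS, MARS, IARS, NARS and TARS lie near the start, that of NARS beginning at 14 being the farthest of these 5.

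QARS, which encodes the glutaminyl-tRNA synthetase (ENSG00000172053, chromosome 3, 49095932 to 49105135), showed the largest fall of the 36 genes. It had 3186, 3139 and 2890 normalised reads in EMEM/F12 and 1742, 1691 and 1716 in HPLM, a ratio of 0.559 (log2 ratio -0.84 ± 0.04), with a DESeq2 adjusted p of 6.41e-51 in the authors' deposited table. VARS, the valyl enzyme gene, had 11214, 11165 and 9784 in EMEM/F12 and 7520, 7385 and 7523 in HPLM (-0.52 ± 0.06). In both genes EMEM/F12 library 3 was the lowest of its medium and still above every HPLM library. FARSA and FARSB encode the subunits of the phenylalanyl enzyme, and both fell. FARSA had 4853, 4872 and 4515 in EMEM/F12 and 3835, 3748 and 3886 in HPLM (-0.31 ± 0.04). FARSB fell by less (-0.22 ± 0.03), from 2060, 2055 and 2018 to 1793, 1779 and 1684. KARS, whose gene also serves cytosol and mitochondria, had 3798, 3984 and 3800 in EMEM/F12 and 3597, 3435 and 3499 in HPLM. It fell slightly (-0.14 ± 0.03) and was not called without EMEM/F12 library 2 (DESeq2 adjusted p = 0.0659). HARS (0.03 ± 0.04), RARS (0.08 ± 0.04) and DARS (-0.16 ± 0.06), for histidine, arginine and aspartate, did not pass. DARS had 838, 728 and 781 in EMEM/F12 and 688, 703 and 716 in HPLM, apart by a narrow gap, and was called lower by limma and with spike-in size factors.

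In mammals 8 of the cytosolic enzymes sit in the multi-tRNA synthetase complex, which is held together by the scaffold proteins AIMP1, AIMP2 and EEF1E1. Members of the complex moved in both directions, with EPRS, IARS and MARS higher, QARS, KARS and LARS lower and RARS and DARS not called. Among the 12 cytosolic genes outside the complex 7 rose (58.3%) and 3 fell (25.0%), against 26.8% and 28.8% of all genes tested. The scaffold genes did not pass the test. AIMP1 had 741 ± 5.78 normalised reads in EMEM/F12 and 790 ± 16.9 in HPLM (log2 ratio 0.09 ± 0.02), AIMP2 1056 ± 36.6 and 1069 ± 14.6 (0.02 ± 0.03), and EEF1E1 167 ± 7.86 and 160 ± 32.3 (-0.06 ± 0.17). The structural classes of the enzymes were both mixed. Of 18 class I genes 6 rose and 9 fell, and of 17 class II genes 5 rose and 7 fell, EPRS being left out because it joins a domain of each.

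Among the mitochondrial genes, those for glutamate, histidine and asparagine fell most. EARS2, which loads glutamate onto both the glutamate and the glutamine tRNA of mitochondria (ENSG00000103356, chromosome 16, 23522014 to 23557731), had 1219, 1229 and 1144 normalised reads in EMEM/F12 and 698, 709 and 719 in HPLM. Its log2 ratio was -0.76 ± 0.03, with a DESeq2 adjusted p of 4.44e-25 in the authors' deposited table. Of the EARS2 exon bases 6.46% are shared with UBFD1 on the other strand, and the part of UBFD1 in its count was not tested. HARS2 had 749, 740 and 720 in EMEM/F12 and 453, 442 and 450 in HPLM (-0.72 ± 0.02). NARS2 had 686, 685 and 655 in EMEM/F12 and 420, 422 and 429 in HPLM (-0.67 ± 0.02). These 3 genes had HPLM levels of 0.592, 0.609 and 0.627 of those in EMEM/F12, with tight libraries and no overlap. IARS2 fell less, from 2271, 2290 and 2377 to 1822, 1823 and 1734 (-0.37 ± 0.03).

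Smaller falls were seen in CARS2 (-0.26 ± 0.05), LARS2 (-0.24 ± 0.05), AARS2 (-0.22 ± 0.06), YARS2 (-0.22 ± 0.04), MARS2 (-0.18 ± 0.06) and TARS2 (-0.16 ± 0.04). CARS2 had 817, 832 and 814 in EMEM/F12 and 639, 703 and 711 in HPLM. YARS2 had 721, 728 and 673 in EMEM/F12 and 607, 610 and 603 in HPLM. MARS2 had 1264, 1237 and 1170 in EMEM/F12 and 1069, 1020 and 1147 in HPLM, and TARS2 had 1186, 1161 and 1143 and then 1089, 1007 and 1037. For all 4 the media were apart, by a narrow gap in MARS2 and TARS2. The falls of CARS2 and AARS2 were called with each library left out in turn, and those of the other 4 were not. That of MARS2 was not called without EMEM/F12 library 1 or 2 or HPLM library 1 or 2 (DESeq2 adjusted p up to 0.128). That of TARS2 was not called without EMEM/F12 library 1 or 2 or HPLM library 2 or 3 (DESeq2 adjusted p up to 0.146). YARS2 lost its call without EMEM/F12 library 1 or 2 (DESeq2 adjusted p up to 0.0759) and LARS2 without HPLM library 3 (DESeq2 adjusted p = 0.0700).

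PARS2, the mitochondrial prolyl enzyme gene (ENSG00000162396, chromosome 1, 54756898 to 54764514), was the exception with the largest rise. It had 147, 159 and 139 normalised reads in EMEM/F12 and 238, 235 and 240 in HPLM (log2 ratio 0.68 ± 0.06), with a DESeq2 adjusted p of 8.77e-06 in the authors' deposited table. VARS2 rose too, from 1342, 1348 and 1221 to 1509, 1533 and 1484 (0.21 ± 0.05), although 22.0% of its exon bases are shared with GTF2H4, which averaged 76.3 normalised reads over the 6 libraries. FARS2 (-0.06 ± 0.09), RARS2 (-0.04 ± 0.02), WARS2 (0.02 ± 0.09) and SARS2 (-0.38 ± 0.14) did not pass. SARS2 had 172, 173 and 132 in EMEM/F12 and 113, 122 and 131 in HPLM, so that EMEM/F12 library 3 lay beside the HPLM libraries, and its DESeq2 adjusted p was 0.0543 in the authors' deposited table. It was called lower in 6 of 13 refits, among them the one without that library. Of the SARS2 exon bases 46.2% are shared with AC011455.2 on the same strand and 10.8% with MRPS12 on the other. The part of these overlaps in its count was not tested. In FARS2, RARS2 and WARS2 the media overlapped.

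Setting the genes for the same amino acid side by side gives 15 pairs, with EPRS used for both glutamate and proline. In 8 pairs the cytosolic and mitochondrial genes were called in opposite directions. In 7 of these (asparagine, cysteine, glutamate, isoleucine, methionine, threonine and tyrosine) the cytosolic gene rose and the mitochondrial gene fell. Valine was the reverse, with VARS lower and VARS2 higher. The widest gap was for glutamate, where the log2 fold changes of EPRS and EARS2 in the authors' deposited table differed by 1.37. Proline and leucine moved alike, both genes rising for proline and both falling for leucine. Only VARS2, PARS2 and WARS2 among the mitochondrial genes had a value above 0. Whether the changes within a pair differ was not tested beyond each gene's own call.

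**Figure D4:**
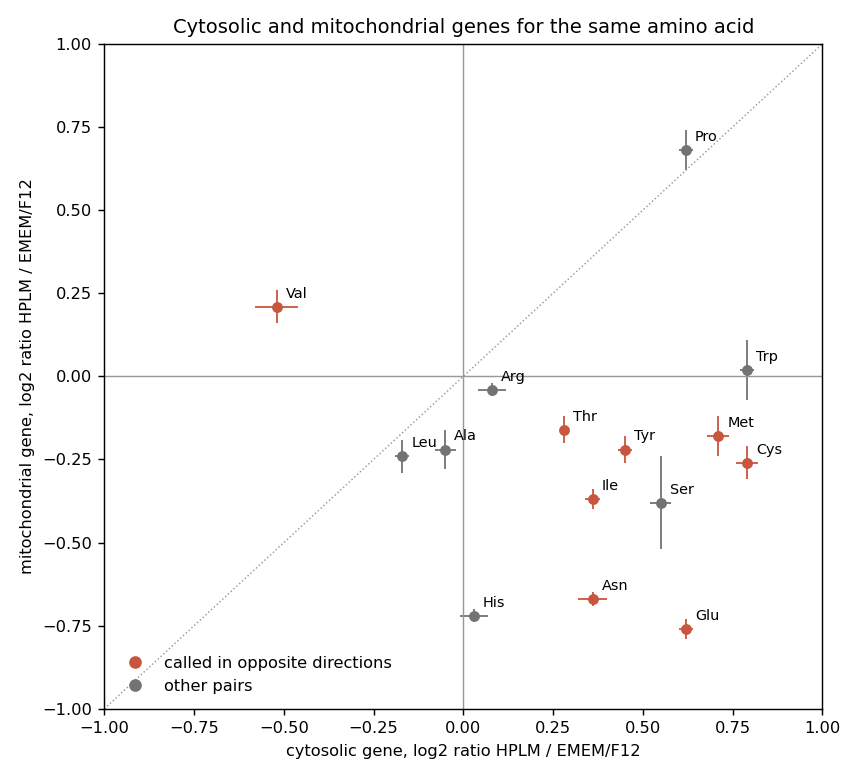
Log2 ratio of HPLM over EMEM/F12 for the cytosolic gene (horizontal axis) and the mitochondrial gene (vertical axis) of 15 amino acids, with error bars of 1 SE over 3 libraries per medium. In 13 pairs the point lies below the dotted line of equal change; proline and valine lie above it.

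HARS and HARS2 lie head to head on chromosome 5, and their RefSeq starts are separated by only 84 bases. HARS had 3345, 3234 and 3093 normalised reads in EMEM/F12 and 3243, 3280 and 3373 in HPLM, with overlap, while HARS2 fell to 0.609 of its EMEM/F12 level. The stretch between the starts is shown because both genes are transcribed away from it, HARS to the left on the minus strand and HARS2 to the right. It holds neither TGATGNAA nor CACGTG.
HARS-HARS2, chr5:140691371-140691454, plus strand: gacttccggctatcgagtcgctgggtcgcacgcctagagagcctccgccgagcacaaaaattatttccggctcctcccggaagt
In GENCODE 29, longer transcripts of the pair overlap by 437 exon bases, which is 11.7% of HARS2 and 5.56% of HARS. Reads from that overlap cannot be told apart without strand.

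Per kilobase of the longest annotated coding transcript, SARS was the most abundant synthetase mRNA in both media, at 6699 ± 231 normalised reads per kilobase in EMEM/F12 and 9827 ± 84.1 in HPLM. MARS followed at 3642 ± 141 and 5961 ± 70.9. The order between genes depends on the length taken, which for MARS was 2905 bases, while its annotated exons cover 7028. The order under another length was not tested. In EMEM/F12 the 17 highest levels were all of cytosolic genes, and the cytosolic median of 1330 compared with 310 for the mitochondrial genes. VARS at 2486 ± 188 and GARS at 2478 ± 42.1 were neighbours there that did not differ beyond their spread. In HPLM they came apart, with GARS at 3504 ± 59.3 and VARS at 1734 ± 18.4, so that VARS moved from rank 4 to 10. WARS moved from rank 8 to 4. DARS was the lowest cytosolic gene at 331 ± 23.4 in EMEM/F12, within the range of mitochondrial genes. The lowest of all were PARS2 at 63.3 ± 4.34 in EMEM/F12 and SARS2 at 59.3 ± 4.25 in HPLM. SARS2 shares 46.2% of its exon bases with AC011455.2, and the part of that overlap in its level was not tested. The highest mitochondrial gene was IARS2 at 650 ± 15.9 and 504 ± 14.4.

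**Figure D5:**
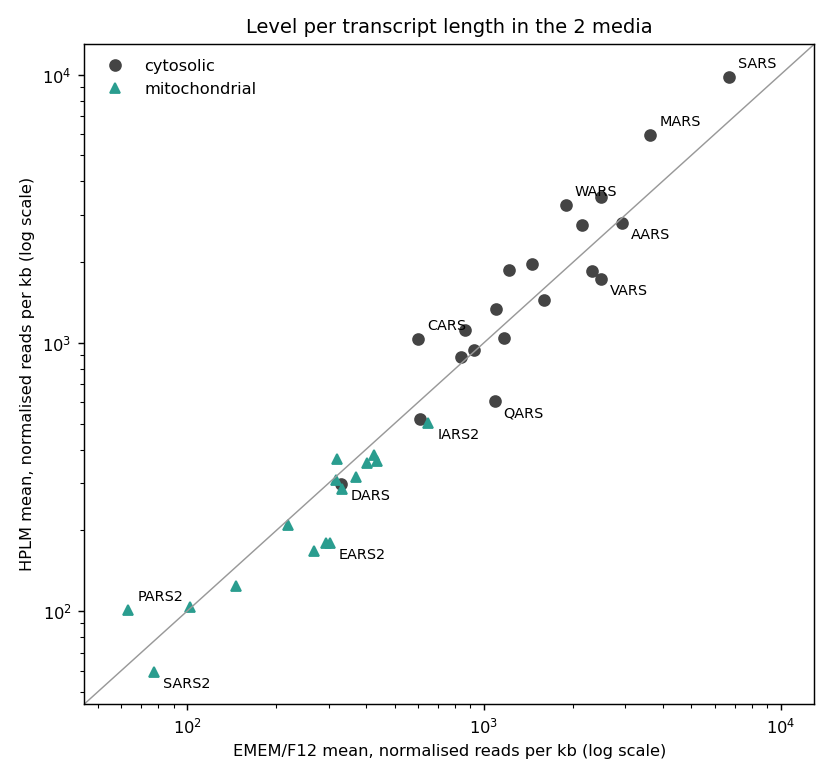
Mean normalised reads per kilobase of the longest coding transcript in EMEM/F12 (horizontal, log scale) and HPLM (vertical, log scale) for the 36 genes, circles cytosolic and triangles mitochondrial, with the line of equal levels. SARS is highest in both media, and most triangles lie below the line.

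Genes that sense uncharged tRNA and act with ATF4 were listed beside the synthetases. Of 8 such genes 6 rose and 2 fell, against 26.8% and 28.8% of all genes tested. This list too was drawn up with earlier results of these data known. ATF4 had 8712, 8622 and 8762 normalised reads in EMEM/F12 and 22584, 21955 and 22501 in HPLM (log2 ratio 1.36 ± 0.01). CEBPB, a partner of ATF4, had the largest rise on this list, from 723 ± 13.0 to 4360 ± 146 (2.59 ± 0.03), followed by DDIT3 (2.45 ± 0.14) and TRIB3 (2.01 ± 0.06). DDIT3 shares 355 exon bases with MARS on the other strand, and the part of MARS reads in its count was not tested. ASNS, the asparagine synthetase gene and a standard ATF4 target, rose by 0.62 ± 0.02, the same log2 ratio as EPRS. The sensor genes went the other way, with EIF2AK4, which encodes GCN2, at 1353 ± 25.8 and 1084 ± 8.90 (-0.32 ± 0.02) and its partner GCN1 at 9985 ± 513 and 8949 ± 331 (-0.16 ± 0.05), both lower. MYCN, which is amplified in this line, was at 72489 ± 6913 and 29419 ± 887 (-1.30 ± 0.08). The part of ATF4 or MYCN in the synthetase values was not tested.

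Related genes of tRNA supply are given by list, against 26.8% of all genes tested that rose and 28.8% that fell. TARSL2, a copy of TARS that is not among the 36, fell (-0.45 ± 0.08). Mitochondria make glutaminyl-tRNA from the product of EARS2 with the amidotransferase subunits GATB, GATC and QRSL1, and of these GATB fell (-0.26 ± 0.06). MTFMT, which formylates the mitochondrial initiator tRNA, fell from 437 ± 44.4 to 257 ± 14.2 normalised reads (-0.76 ± 0.10). Among 7 genes of selenocysteine charging and editing 2 rose and 2 fell. SEPHS2, the selenophosphate synthetase of the selenocysteine pathway, rose from 2143 ± 36.5 to 4545 ± 133 (1.08 ± 0.03), DTD1 rose by 0.15 ± 0.02, and SEPHS1 and DTD2 fell (-0.32 ± 0.03 and -0.35 ± 0.03).

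Of 20 genes of tRNA end maturation, splicing and export 3 rose and 11 fell (55.0%). ELAC1, a tRNA 3′-end nuclease gene, rose from 88.9 ± 6.69 to 187 ± 6.39 (1.07 ± 0.07), with TSEN15 and RPP14. RPP25, which encodes a subunit of ribonuclease P, fell from 1536 ± 189 to 661 ± 29.3 (-1.22 ± 0.11), and POP1 and TSEN54 fell too. Of 43 tRNA modification genes 10 rose (23.3%) and 18 fell (41.9%). The pseudouridine synthase gene PUS7 was lowest (-1.03 ± 0.03), followed by WDR4 (-0.85 ± 0.07) and DUS2 (-0.82 ± 0.05), while ADAT3 (0.56 ± 0.02), CTU1 (0.54 ± 0.05) and TRMT5 (0.50 ± 0.05) rose most. Of 22 genes of RNA polymerase III, which transcribes tRNA genes, and its factors 3 rose (13.6%) and 10 fell (45.5%). POLR3K fell from 644 ± 9.52 to 256 ± 20.7 (-1.33 ± 0.07), and GTF3C5 also fell (-0.45 ± 0.05). MAF1, which encodes the repressor of this polymerase, rose from 1249 ± 31.3 to 1803 ± 14.5 (0.53 ± 0.02), as did CRCP (0.43 ± 0.04) and POLR3A (0.17 ± 0.03).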

How the data were processed

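Per the labels' protocols, a TruSeq version 2 kit turned polyadenylated RNA into libraries. The submitters' processing notes list STAR 2.5.2b, Trimmomatic 0.36, Subread 1.5.2 and DESeq2, and the build GRCh38, without saying what each was used for. Annotation release and strand setting were not given in the sources used here. In 1 table the authors deposited log2 fold changes, p-values and adjusted p-values of their own comparison, per the file headers, and 6 library columns of signal, which the values show to be the authors' read counts over 1 factor for each library. Whole reads were recovered for 100% of 96306 values within 0.01 reads.

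The 3 columns per medium match 1 sample each and count as repeat runs, so the authors' adjusted p under 0.05, over all lines with a p-value, was the test. Members and lists were chosen with earlier results of these data known. Library values are given for members called with a log2 fold change of at least 0.3 in size and for pairs called in opposite directions; up to 3 called genes per direction and list, at a mean of at least 100, are named, and further genes and values were added after they were seen. Some genes that this rule would name are not reported here. Means, SD and SE (propagated from SD) were computed with Python 3.11.15 and pandas 2.3.3. Alternatives used edgeR 4.0.16, DESeq2 1.42.0 and limma 3.58.1 on R 4.3.3, tested first on simulated data. Every member had at least 841 reads in all. Coordinates, exon overlaps and lengths came from GENCODE 29 on GRCh38, and 11514 deposited genes were matched by symbol to RefSeq promoters.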

Additional observations from a re-analysis of the deposited data

How the results depend on the processing

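Of the 36 genes, 26 kept their direction and their side of the threshold under all 13 refits, which were edgeR on recovered reads with and without a filter and with a replicate block, DESeq2 on gene reads, with spike-in size factors and centred on the median gene, limma, and each library left out in turn. The exceptions were AARS, DARS, HARS, KARS, LARS2, MARS2, SARS2, TARS2, WARS2 and YARS2. HARS, which was not called, changed sign with spike-in size factors, and WARS2, also not called, did so there and without EMEM/F12 library 1 or HPLM library 1. Over the 36 genes, a log2 fold change of at least 0.5 left 6 that rose and 5 that fell, in the cytosol 5 and 2 and in mitochondria 1 and 3. Leaving out the 20 genes that share exon bases left 6 that rose and 6 that fell, in the cytosol 5 and 2 of 9 and in mitochondria 1 and 4 of 7. At an adjusted p under 0.01, 6 mitochondrial genes fell. In the ATF4 group 5 rose and 0 fell with the size limit and likewise among the 6 genes without shared exons, and 2 fell with spike-in size factors. Without 1 library, 1 to 2 of that group fell. In the other cytosolic group 2 fell under the size limit and 2 of 3 without shared exons. The cytosolic median was 0.21 with edgeR, with no filter and with the replicate block, 0.12 with spike-in size factors and 0.28 without shared exons. The mitochondrial median was -0.28 with spike-in size factors, which placed the median of all genes at -0.0544. Deviations of same-numbered libraries from the mean of their medium correlated at -0.0616, -0.0327 and -0.104 across genes. Differently numbered libraries gave -0.0328 to 0.0924. Centring on those means constrains these correlations, so they showed no pairing by number but cannot exclude it. With the replicate block 10 cytosolic genes rose. Counting any listed start left 6 cytosolic promoters with TGATGCAA against 90 of the deposited genes, a choice made after seeing the data, as were the counts for the ATF4 and other cytosolic groups.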

Other observations

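Of the 36 synthetase genes 10 have a protein-coding gene that starts within 1000 bases on the other strand in GENCODE 29. HARS and HARS2 are among them as partners of each other. Only for AARS, FARS2 and RARS2 do the annotated starts leave a gap, at 120, 105 and 64 bases apart. For the others the annotated genes overlap at their starts. Some partners moved unlike the synthetase, and others were not called or moved the same way. UBFD1 rose from 2941 to 3609 normalised reads beside EARS2, which fell, with log2 fold changes of 0.30 and -0.76 in the authors' deposited table. ORC3, which encodes a subunit of the origin recognition complex, rose from 435 to 612 beside RARS2, with 0.49 and -0.04 in the authors' deposited table. TERF2IP, a telomere protein gene, rose from 2554 to 3740 beside KARS, with 0.55 and -0.14 there. MRPS12, a mitochondrial ribosomal protein gene, fell from 993 to 859 beside SARS2, which did not pass, with -0.21 and -0.38. LYRM4 fell (-0.25) beside FARS2 (-0.06), which was not called. DDX19B (-0.19), WDR25 (0.09) and ING1 (-0.02), the partners of AARS, WARS and CARS2, were not called. Some of these pairs share exon bases, and without strand their reads cannot be told apart there.

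Among the deposited genes whose first listed promoter holds TGATGCAA, 21 of 58 (36.2%) rose and 12 (20.7%) fell, against 28.3% and 30.7% of 11455 genes without it. The 58 include 6 synthetases, of which CARS, IARS, MARS, NARS and TARS rose. Without the synthetases 16 of 52 (30.8%) rose and 12 (23.1%) fell, a rising share near that of the genes without the motif, in a count chosen after seeing the data. With TGATGNAA 38.5% of 200 genes rose and 19.5% fell, against 28.2% and 30.9% of 11313 genes without it. Leaving out the synthetases, 37.3% of 193 rose and 19.7% fell, against 28.2% and 30.8% of 11290. With the E-box CACGTG 25.3% of 1161 genes rose and 37.2% fell, against 28.7% and 29.9% of 10352 genes without it. These shares are given as a description of the promoter windows searched.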
